A study of Mus musculus with 6 samples.

Results

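Interferon-stimulated genes and guanylate binding proteins were followed by RNA-seq in DC2.4, an established line of mouse dendritic cells, with and without a PD-L1 knockout. PD-L1, encoded by Cd274, binds the checkpoint receptor PD-1 on T cells. The genes were taken by symbol from a list of 49, of which 46 had a row among the 31205 rows of the read count table; Oas1b, Mx1 and Mx2 were not analysed here. Of these 46, 25 had enough counts to be tested, 20 had counts too low to test and 1 (Zbp1, a sensor of Z-form nucleic acid) had 0 counts in all 6 libraries. The groups were DC2.4 with the genotype Control (3 libraries) and DC2.4 with the genotype PD-L1 knockout (3 libraries). The labels name no treatment, no interferon and no virus, and do not say whether the knockout is a single clone or whether the replicates are separate cultures, so each p-value reflects the variation among the sequenced libraries only, part or all of which may be technical. In a bulk library, fewer cells expressing a gene and less RNA per cell cannot be told apart.

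Type I interferons signal through the receptor chains IFNAR1 and IFNAR2, the kinases JAK1 and TYK2, and a complex with STAT2 and IRF9 that binds interferon-stimulated response elements in promoters. Interferon gamma signals through JAK1 and JAK2, and its target promoters hold gamma-activated sites. The induced genes encode sensors of viral nucleic acid, enzymes that block viral RNA, and large GTPases that act on vacuoles holding microbes. Dendritic cells keep many of these genes at a low basal level and raise them on contact with interferon.

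Promoters are shown first, because both elements can be read in them and because members with and without a change carry them. RefSeq entries (build GRCm38.p6, the same assembly as mm10) matched 36 of the 46 genes. The 250 bases before the annotated start were searched on both strands for the core of the interferon-stimulated response element (GAAA, any 2 bases, then GAAA) and for the core of the gamma-activated site (TTC, any 3 bases, then GAA), which reads the same on either strand. The response element core occurred in 18 of the 36 (50%), against 3.46% of 27025 genes with an entry. The gamma-activated site core occurred in 10 of the 36 (27.8%), against 8.13% of all. Among tested genes, the response element core stood in 1 of 4 that were lower in knockout and had an entry (Rsad2), in 7 of 15 without a call, and in Bst2, which was higher. Irf7 held neither core. The sequences below run 5′ to 3′ on the gene's strand, with matches to either core in capitals. They are those of Rsad2, Ifit2 and Eif2ak2, which were lower in knockout, of Bst2, which was higher, and of Isg15, a gene without a call that was added after its matches were seen.
Rsad2 (chr12:26456453-26456702, minus strand): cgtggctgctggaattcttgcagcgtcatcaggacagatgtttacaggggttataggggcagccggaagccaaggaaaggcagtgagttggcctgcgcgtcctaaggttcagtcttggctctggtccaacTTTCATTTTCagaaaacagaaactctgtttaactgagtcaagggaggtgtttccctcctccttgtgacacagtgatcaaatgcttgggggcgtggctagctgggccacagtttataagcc
Ifit2 (chr19:34550444-34550693, plus strand): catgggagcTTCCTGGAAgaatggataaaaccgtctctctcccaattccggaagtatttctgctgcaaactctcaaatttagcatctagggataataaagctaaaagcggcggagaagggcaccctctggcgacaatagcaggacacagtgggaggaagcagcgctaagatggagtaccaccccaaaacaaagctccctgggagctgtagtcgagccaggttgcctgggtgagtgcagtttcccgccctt
Eif2ak2 (chr17:78882573-78882822, minus strand): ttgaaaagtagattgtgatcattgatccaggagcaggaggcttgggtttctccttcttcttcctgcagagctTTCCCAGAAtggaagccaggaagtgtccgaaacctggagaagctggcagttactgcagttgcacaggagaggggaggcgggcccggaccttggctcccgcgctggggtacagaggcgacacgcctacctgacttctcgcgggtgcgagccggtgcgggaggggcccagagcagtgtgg
Bst2 (chr8:71537473-71537722, minus strand): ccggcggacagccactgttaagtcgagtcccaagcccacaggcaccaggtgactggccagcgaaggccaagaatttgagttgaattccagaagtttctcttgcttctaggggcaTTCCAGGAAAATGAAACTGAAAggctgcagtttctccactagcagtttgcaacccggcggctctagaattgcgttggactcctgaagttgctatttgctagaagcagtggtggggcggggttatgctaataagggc
Isg15 (chr4:156200819-156201068, minus strand): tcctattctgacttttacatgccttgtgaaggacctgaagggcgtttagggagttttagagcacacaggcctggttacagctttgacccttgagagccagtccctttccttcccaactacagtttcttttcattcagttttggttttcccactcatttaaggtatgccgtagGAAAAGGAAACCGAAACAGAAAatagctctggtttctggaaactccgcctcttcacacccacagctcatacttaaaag

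In Rsad2 the match lay on the opposite strand, from base -120 to base -111 relative to the start. Bst2 held 2 overlapping copies of the response element core, from -130 to -115, and a gamma-activated site core that overlapped the first of them. Isg15 held 3 overlapping copies, from -78 to -57. The windows of Ifit2, which has 2 RefSeq starts and is shown for 1 of them, and of Eif2ak2 held a gamma-activated site core. A match is only a description of these letters in this window.

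Total counts per library ran from 10918498 (control library 1) to 23250065 (control library 3). Cd274 counts were 52, 99 and 171 in the controls and 102, 81 and 163 in the knockouts (0.28 ± 0.25 SE on the log2 scale, edgeR adjusted p = 0.415). Its counts therefore do not check the labels, on which every direction rests. Leukocyte genes such as Ptprc, Spi1 and Cd68 had at least 1840 counts in every library, while Flt3, a growth factor receptor of dendritic cell precursors, had at most 1 count and H2-Ab1, an MHC class II chain, at most 4. Control library 2 stood apart by Col1a1 (2235 counts) and Fn1 (1382); the summed level of 15 stromal and fibroblast markers was 228 CPM there and 0.249 to 1.34 CPM in the other 5 libraries, with Dcn, Lum and Thy1 at 0 everywhere. The part of these markers in any result was not tested, and results are also given without that library.

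Of the 25 interferon-stimulated genes tested, 7 passed the test: 6 were lower in knockout (Irf7, Ifit2, Parp14, Rsad2, Oas2 and Eif2ak2) and 1 was higher (Bst2). Over all 11453 genes tested, 13.5% were lower and 11.8% higher, so the share of these genes that was lower exceeded the background and the share that was higher did not. The other 18 had no call. Counting calls or not, 21 of the 25 had a negative log2 fold change, against 49% of all genes. Their median was -0.68, against 0.01 over all genes tested. Of the 25, 5 (Oas2, Rsad2, Lgals3bp, Gbp7 and Irgm2) reached the minimum level for testing only through the control libraries, which favours low values in knockout among them. The groups did not overlap in 9 of the 25, with knockout below control in 8 (background 21.8%) and above it in 1 (background 21.1%). Scaling changes the background: with total counts alone 667 genes of the whole table were higher and 2212 lower, and after removing trends with exon length and GC content 2045 were higher and 982 lower, in place of 1353 and 1543. The genes followed here then had 0 higher and 9 lower, and 0 higher and 5 lower.

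**Figure D1:**
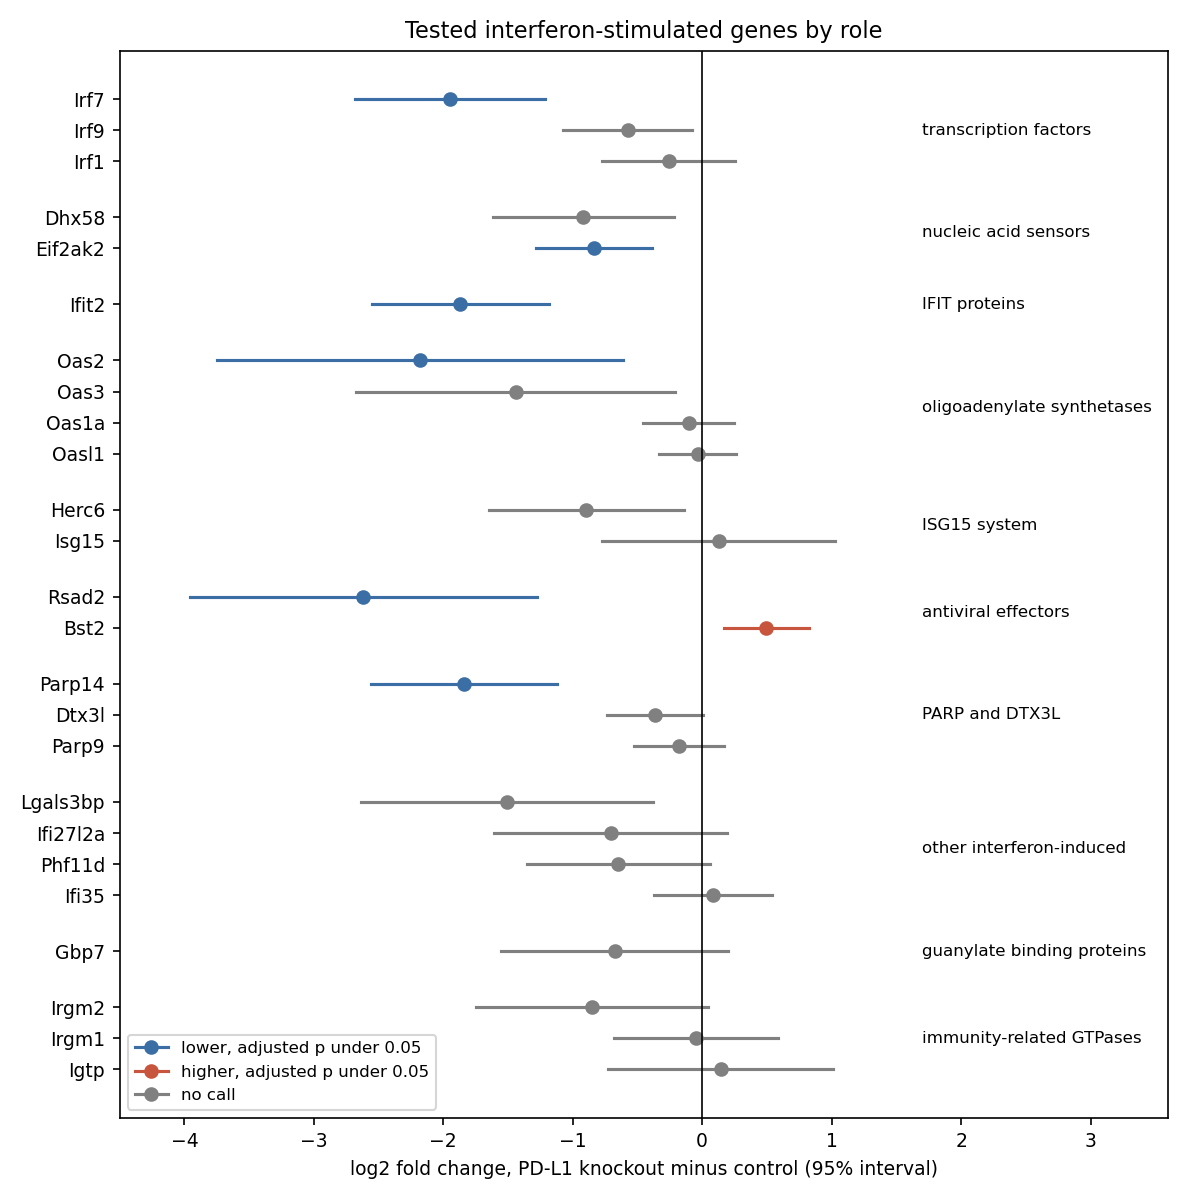
Log2 fold change, PD-L1 knockout minus control, for the 25 tested interferon-stimulated genes grouped by role; points are edgeR estimates and lines their 95% intervals. The 6 genes in blue were lower and Bst2, in red, was higher at an adjusted p under 0.05; Oas2 and Rsad2 have the widest intervals.

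Of the 3 transcription factors, Irf7 fell and the others had no call. Irf7, which drives interferon alpha genes and is itself induced by interferon (ENSMUSG00000025498.15, chromosome 7, 141262706 to 141266481), had 2.51, 3.44 and 3.28 CPM (TMM-normalized counts scaled to library size) in the controls, given here and throughout in the order of library 1, 2 and 3, and 0.906, 0.806 and 0.696 in the knockouts. Every knockout library lay below every control library, at 3.86-fold lower on the fitted scale (log2 fold change -1.95, SE 0.33, edgeR adjusted p = 0.00473). Irf9, the DNA-binding partner of STAT2, had 6.35, 7.76 and 9.51 CPM in control and 5.44, 5.10 and 5.42 in knockout. These groups did not overlap either, but the difference did not pass the test (-0.57, adjusted p = 0.0822); it passed without control library 1 (adjusted p = 0.0495). Irf1, a factor induced mainly by interferon gamma, had 9.84, 14.2 and 15.6 CPM in control and 8.46, 13.3 and 11.6 in knockout, with overlap (-0.26, 95% interval -0.77 to 0.26, adjusted p = 0.429).

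Among sensors of nucleic acid, Eif2ak2 fell. It encodes PKR, a kinase that halts translation when bound by double-stranded RNA (ENSMUSG00000024079.4, chromosome 17, 78852564 to 78882573). It had 41.0, 58.0 and 49.9 CPM in control and 36.3, 23.9 and 23.6 in knockout. The groups did not overlap, but knockout library 1 lay closer to the lowest control than to the other knockout libraries. The log2 fold change was -0.83 (SE 0.20, edgeR adjusted p = 0.0173), and the call was lost on leaving out control 2 (edgeR adjusted p = 0.0876), knockout 2 (0.0737) or knockout 3 (0.0712). Dhx58, which encodes LGP2, a regulator of RNA sensing, had 2.15, 3.02 and 3.48 CPM in control and 1.66, 1.48 and 1.49 in knockout, without overlap and without a call (-0.92, adjusted p = 0.0554). It was called without control library 1 (0.0397) or knockout library 1 (0.0478).

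Ifit2 was the only member of its family with enough counts to test, and it fell. IFIT proteins bind viral RNA and limit its translation. Ifit2 (ENSMUSG00000045932.12, chromosome 19, 34550694 to 34576419) had 4.65, 7.41 and 8.55 CPM in control and 1.74, 1.61 and 2.29 in knockout. The groups were well apart (log2 fold change -1.87, SE 0.31, edgeR adjusted p = 0.00423). Its transcripts shared no stretch of 50 bases with any other gene's.

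The oligoadenylate synthetases, which make a small messenger when bound by double-stranded RNA, had 1 call among the 4 tested, and their groups overlapped in all 4. Oas2 (chromosome 5, 120730333 to 120749853) had 0.895, 6.58 and 5.67 CPM in control and 0.226, 1.01 and 1.59 in knockout. It was called lower (log2 fold change -2.18, SE 0.70, edgeR adjusted p = 0.0464), yet its groups overlapped, since control library 1 lay below knockout libraries 2 and 3. Leaving out control 2, control 3, knockout 2 or knockout 3 ended the call, with an adjusted p of 0.166, 0.110, 0.130 and 0.0640, as did limma-voom (0.0800) and the length and GC correction (0.0549). Oas3, its neighbour (chromosome 5, 120753098 to 120777661), had 7.07, 35.4 and 33.7 CPM in control and 3.62, 11.8 and 12.6 in knockout. Library 1 was the lowest of each group by a wide margin, and the difference did not pass the test (-1.44, SE 0.55, adjusted p = 0.0791), although it did without control library 1 (-1.87, adjusted p = 0.0231). Oasl1, a family member without synthetase activity, had 57.4, 70.5 and 61.9 CPM in control and 58.3, 60.3 and 66.8 in knockout. These values overlapped throughout (log2 fold change -0.03, 95% interval -0.33 to 0.26, adjusted p = 0.864). Oas1a averaged 13.6 ± 1.07 CPM (SD, n = 3) in control and 12.7 ± 0.67 in knockout (-0.10, 95% interval -0.46 to 0.25, adjusted p = 0.650). Of its transcripts, 57.6% of the stretches of 50 bases are shared with other genes, mainly Oas1g, so its counts are uncertain.

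In the ISG15 system, Isg15, the ubiquitin-like modifier itself, had 0.805, 2.19 and 1.72 CPM in control and 1.36, 2.22 and 1.69 in knockout. The groups overlapped, and the interval of the difference was wide (log2 fold change 0.13, 95% interval -0.77 to 1.03, adjusted p = 0.835). Herc6, the ligase that attaches ISG15 in mouse, had 2.68, 4.74 and 5.67 CPM in control and 2.57, 1.81 and 2.74 in knockout (-0.89, adjusted p = 0.0749), and was called without control library 1 (0.0328).

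Of the 2 antiviral effectors with enough counts, 1 fell and the other rose. Rsad2 encodes viperin, a radical SAM enzyme that makes a chain-terminating nucleotide (ENSMUSG00000020641.16, chromosome 12, 26442746 to 26456452). It had 10, 66 and 56 counts in control and 2, 6 and 11 in knockout, or 0.895, 3.91 and 2.24 CPM against 0.151, 0.403 and 0.547. The groups did not overlap, and this was the largest fitted fall among the tested genes of the list (log2 fold change -2.62, SE 0.60, edgeR adjusted p = 0.0147). The call was lost on leaving out control 2 (-2.07, edgeR adjusted p = 0.0774) or knockout 2 (-2.65, 0.0580). Bst2, or tetherin, which holds budding virions at the cell surface (ENSMUSG00000046718.8, chromosome 8, 71534255 to 71537456), had 38.1, 39.9 and 37.9 CPM in control and 52.7, 64.0 and 46.9 in knockout. Every knockout library was above every control, a 1.41-fold rise (log2 fold change 0.50, SE 0.15, adjusted p = 0.0350). The rise did not pass on leaving out control 1 (edgeR adjusted p = 0.0689), control 2 (0.118), control 3 (0.0987) or knockout 2 (0.139), with total counts alone (0.107), or after the length and GC correction (0.102).

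**Figure D2:**
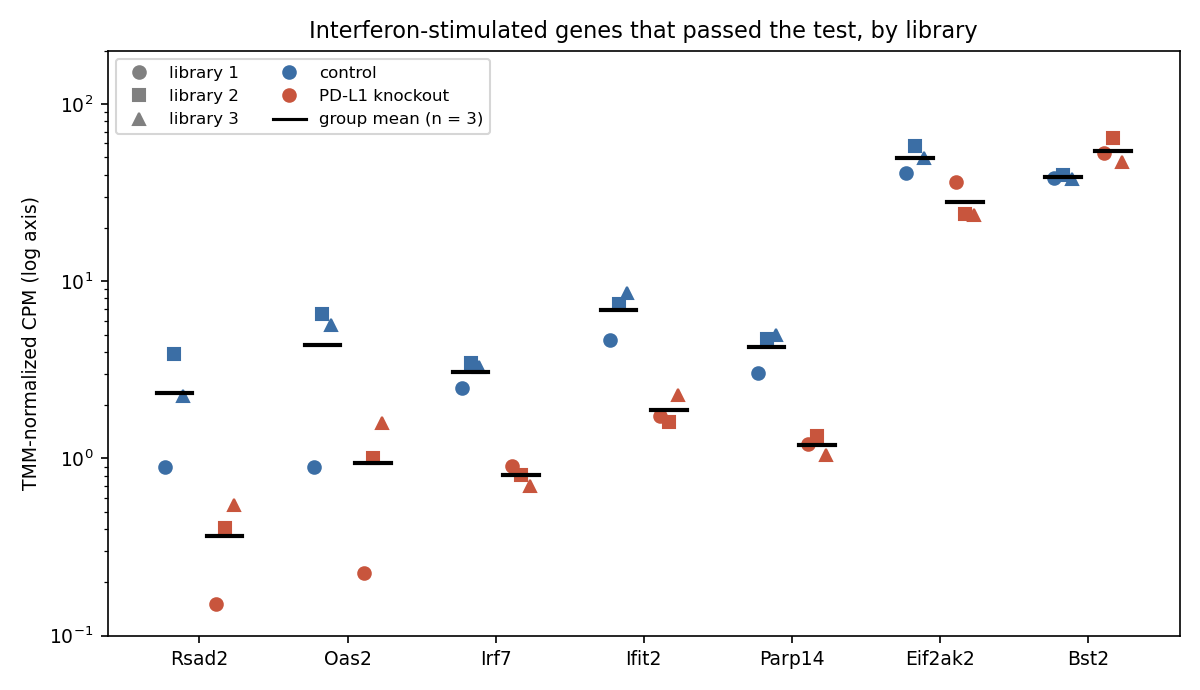
TMM-normalized CPM on a log axis for the 7 called genes in each library; symbols mark the library number, colours the group and bars the group mean (n = 3). Irf7, Ifit2 and Parp14 separate cleanly, Oas2 overlaps through control library 1 at 0.895 CPM, and Bst2 alone is higher in knockout.

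The PARP and DTX3L genes lie together on chromosome 16 but did not change alike. Parp14, an ADP-ribosyltransferase of macrophage and interferon signalling (ENSMUSG00000034422.14, chromosome 16, 35832874 to 35871544), had 3.04, 4.74 and 4.95 CPM in control and 1.21, 1.34 and 1.04 in knockout. The groups were well apart (log2 fold change -1.84, SE 0.32, edgeR adjusted p = 0.00559). Parp9 (35938470 to 35972605) and the ubiquitin ligase gene Dtx3l (35926511 to 35939151), whose products form a complex, run on opposite strands and overlap by 458 exon bases. Parp9 had 17.2, 21.2 and 18.2 CPM in control and 17.2, 17.9 and 15.0 in knockout (-0.18, adjusted p = 0.410). Dtx3l averaged 18.9 ± 2.59 CPM (SD, n = 3) in control and 14.7 ± 1.68 in knockout (-0.36, edgeR adjusted p = 0.131). For both, the groups overlapped, and whether their fold changes differed from that of Parp14 was not tested.

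None of the other induced genes with enough counts was called. Ifi35, a leucine zipper protein, had 8.50, 8.06 and 7.51 CPM in control and 7.47, 10.3 and 7.71 in knockout (0.08, adjusted p = 0.786). Lgals3bp, a secreted galectin ligand, had 0.626, 2.43 and 2.48 CPM in control and 0.604, 0.806 and 0.597 in knockout. Control library 1 was at the knockout level, and the difference did not pass the test (-1.51, 95% interval -2.64 to -0.38, adjusted p = 0.0533). It was called where that library was left out (-1.87, adjusted p = 0.0165), with total counts alone (0.0413) and with no filter on low counts (0.0330). Ifi27l2a (-0.71, edgeR adjusted p = 0.215) and Phf11d (-0.65, 0.152) had negative values without a call.

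Guanylate binding proteins and immunity-related GTPases, which coat and break vacuoles holding microbes and are classical targets of interferon gamma, showed no call among the 4 tested, and most of the guanylate binding proteins had too few counts to test. Gbp7 had 0.895, 1.07 and 1.20 CPM in control and 0.528, 0.873 and 0.597 in knockout, without overlap (-0.68, 95% interval -1.55 to 0.20, edgeR adjusted p = 0.222). Irgm1, a regulator of the other GTPases, had 3.85, 4.62 and 6.07 CPM in control and 3.70, 4.30 and 6.12 in knockout, values that cover the same range (-0.05, 95% interval -0.68 to 0.59, adjusted p = 0.914). Igtp (0.14, adjusted p = 0.805) and Irgm2 (-0.85, 0.139) are neighbours on chromosome 11 that share 162 exon bases. Gbp2, Gbp3, Gbp5 and Gbp9 were not tested; they had at most 11 counts in any library, and Gbp5 and Gbp9 had 0 in every knockout library against 4 and 3 in the controls together.

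**Figure D3:**
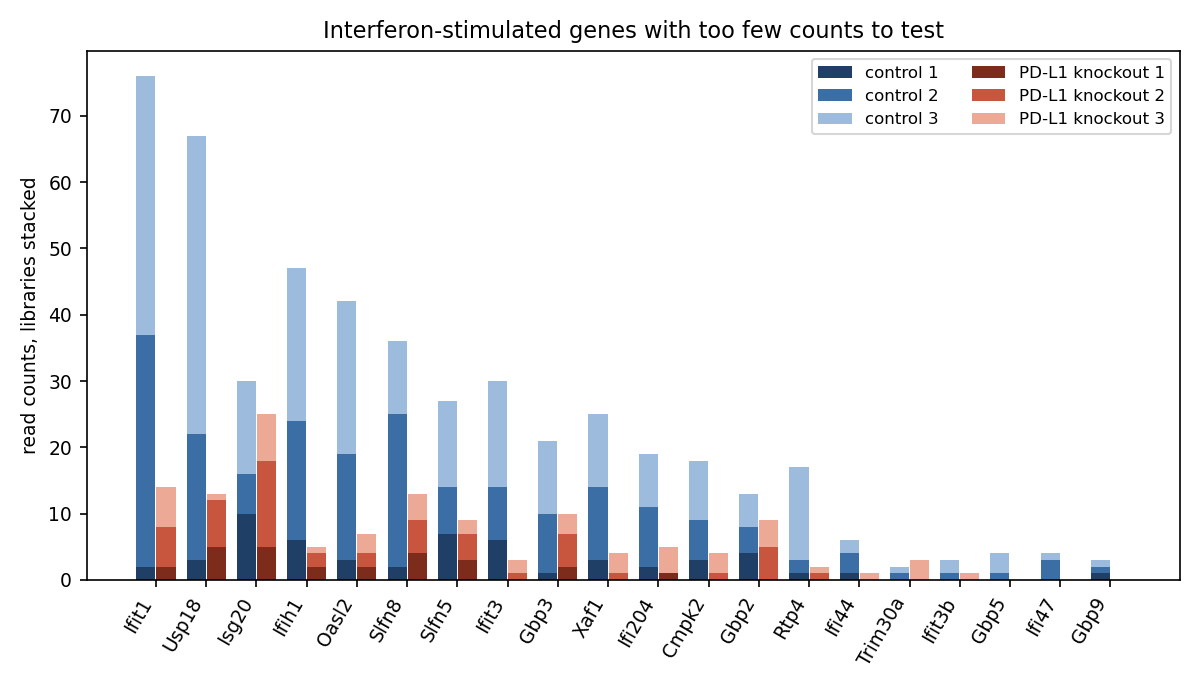
Read counts of the 20 interferon-stimulated genes with too few counts to test, with the 3 libraries of each group stacked. Ifit1 had 76 counts in control and 14 in knockout, Usp18 had 67 and 13, and Isg20 had 30 and 25.

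The genes with too few counts add values with no test. Ratios of control to knockout per depth, with 95% exact binomial intervals that cover counting error only, were 4.93 (2.77 to 9.45) for Ifit1, which had 2, 35 and 39 counts in control and 2, 6 and 6 in knockout. Ifih1, which encodes the RNA sensor MDA5, had 6, 18 and 23 counts in control and 2, 2 and 1 in knockout, a ratio of 8.54 (3.41 to 27.5). Usp18, the ISG15 protease that dampens the interferon receptor, had 3, 19 and 45 counts against 5, 7 and 1 (4.68, 2.56 to 9.25). Of these, Ifih1 alone had every knockout library below every control in raw counts, and Ifit1 and Usp18 were low in control library 1 as well.

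Oasl2 had 42 counts in control and 7 in knockout (ratio 5.45, 2.43 to 14.4), and Xaf1, a pro-apoptotic gene, 25 and 4 (5.68, 1.96 to 22.5). Ifit3 had 30 and 3 (9.09, 2.83 to 46.5), with 51.2% of its stretches of 50 bases shared, mainly with Ifit3b, which itself had 3 and 1. Rtp4 had 17 and 2 (7.73, 1.83 to 68.9), of which 14 lay in control library 3. Cmpk2, the neighbour and partner of viperin, had 18 and 4, Ifi204, a DNA-binding protein, 19 and 5, Slfn8 36 and 13, and Slfn5 27 and 9. Some stretches of 50 bases of Ifi204 are shared, mainly with Mndal, which had 3820 counts in control and 854 in knockout. Slfn8 shares some mainly with Slfn9, which had 1597 and 891. Both relatives were called lower, and their part in the counts of Ifi204 and Slfn8 was not tested. Isg20, an exonuclease, had 30 and 25, a ratio of 1.09 (0.620 to 1.93), and Gbp2 had 13 and 9 (1.31, 0.519 to 3.48). Intervals of both reach across 1. Gbp3 had 21 and 10, Ifi44 6 and 1, Ifi47 4 and 0 and Trim30a 2 and 3. Summed over the 21 genes not tested, the level was 4.92, 10.8 and 10.1 CPM in the controls and 1.96, 3.56 and 2.44 CPM in the knockouts, so the groups did not overlap. With no filter on low counts, edgeR called 13 of 45 genes lower (9.91% of all genes under that setting), 7 more than with the filter: Ifih1, Ifit1, Ifit3, Oasl2 and Usp18, together with Oas3 and Lgals3bp.

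Levels were compared between genes per kilobase of exon (RPKM, from the normalized CPM and the exon length of the annotation). In control, Bst2 was the highest at 42.8 ± 1.23 RPKM (SD, n = 3), followed by Oasl1 at 24.3 ± 2.55, Eif2ak2 at 9.71 ± 1.67 and Oas1a at 7.21 ± 0.57. Ifi27l2a (4.76 ± 1.49), Ifi35 (4.65 ± 0.29), Parp9 (3.87 ± 0.42), Oas3 (3.59 ± 2.25), Irf1 (3.32 ± 0.75) and Dtx3l (3.30 ± 0.45) came next. Within this run, neighbouring means lay within the summed SDs of each other except Ifi35 and Parp9, whose control libraries did not overlap. Of the genes that fell, Eif2ak2 alone was above 2 RPKM in control; Ifit2 was at 1.75 ± 0.51, Oas2 at 0.985 ± 0.686, Irf7 at 0.814 ± 0.132, Rsad2 at 0.542 ± 0.349 and Parp14 at 0.456 ± 0.113. In knockout they were at 5.47 ± 1.42 (Eif2ak2), 0.478 ± 0.092 (Ifit2), 0.212 ± 0.154 (Oas2), 0.213 ± 0.028 (Irf7), 0.0847 ± 0.0463 (Rsad2) and 0.129 ± 0.016 (Parp14).

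Control libraries differed among themselves in these genes. Control library 1 was the lowest of the controls for 22 of the 25 tested genes, against 38.9% of all genes. The ratio of the highest to the lowest control reached 7.35 for Oas2, 5.0 for Oas3, 4.37 for Rsad2 and 3.96 for Lgals3bp, and was 1.05 for Bst2 and 1.23 for Oasl1. Relative to the control mean on the log2 scale, the median of the 25 genes was -0.38 in control library 1, 0.17 and 0.22 in the other controls, and -0.51, -0.64 and -0.59 in the knockouts; the median of all genes was within 0.02 of 0 in each. Control library 1 therefore lay between the other controls and the knockouts. Knockout library 1 was the lowest of the knockouts for 9 of the 25, against 40.3% of all genes, among them Oas2, Oas3 and Rsad2. Control library 1 also had the fewest counts, and the part of depth was not tested.

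**Figure D4:**
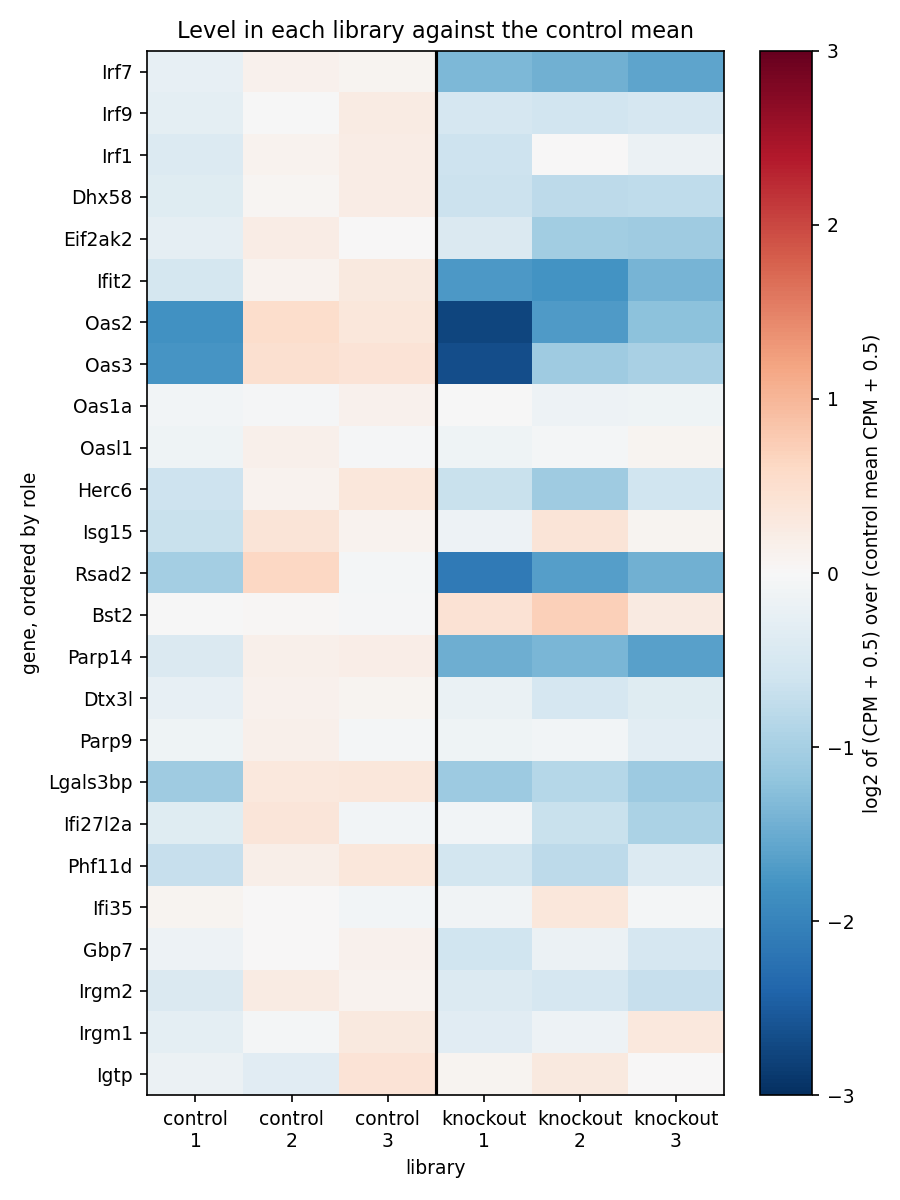
Level of each tested interferon-stimulated gene in each library, as log2 of CPM plus 0.5 over the control mean plus 0.5, with blue below and red above the control mean. Control library 1 is pale to dark blue for most genes, and the knockout libraries are blue for most genes but red for Bst2.

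Without control library 1, 16 of 29 tested genes were lower and 0 higher (11.2% of all genes lower), the additional calls being Dhx58, Herc6, Ifih1, Ifit1, Irf9, Lgals3bp, Oas3, Oasl2, Phf11d and Usp18. Of these, Ifih1, Ifit1, Oasl2 and Usp18 reached the minimum level for testing (about 0.620 CPM) in no knockout library. They entered the fit only through the controls, which favours low values in knockout. Without control library 2, the library with stromal transcripts, 3 of 26 were lower (Irf7, Ifit2 and Parp14) and 0 higher, and 4.07% of all genes were lower. Without knockout library 1, 10 of 30 were lower and 1 higher, with 22.3% of all genes lower. Those lower included Ifih1, Oasl2 and Usp18, again tested only through the controls. Irf7, Ifit2 and Parp14 were called lower in each of the 6 fits that left out a library and in each of the 10 other alternatives. Over the 6 fits their log2 fold changes ran from -2.06 to -1.84, -2.07 to -1.67 and -2.01 to -1.71.

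**Figure D5:**
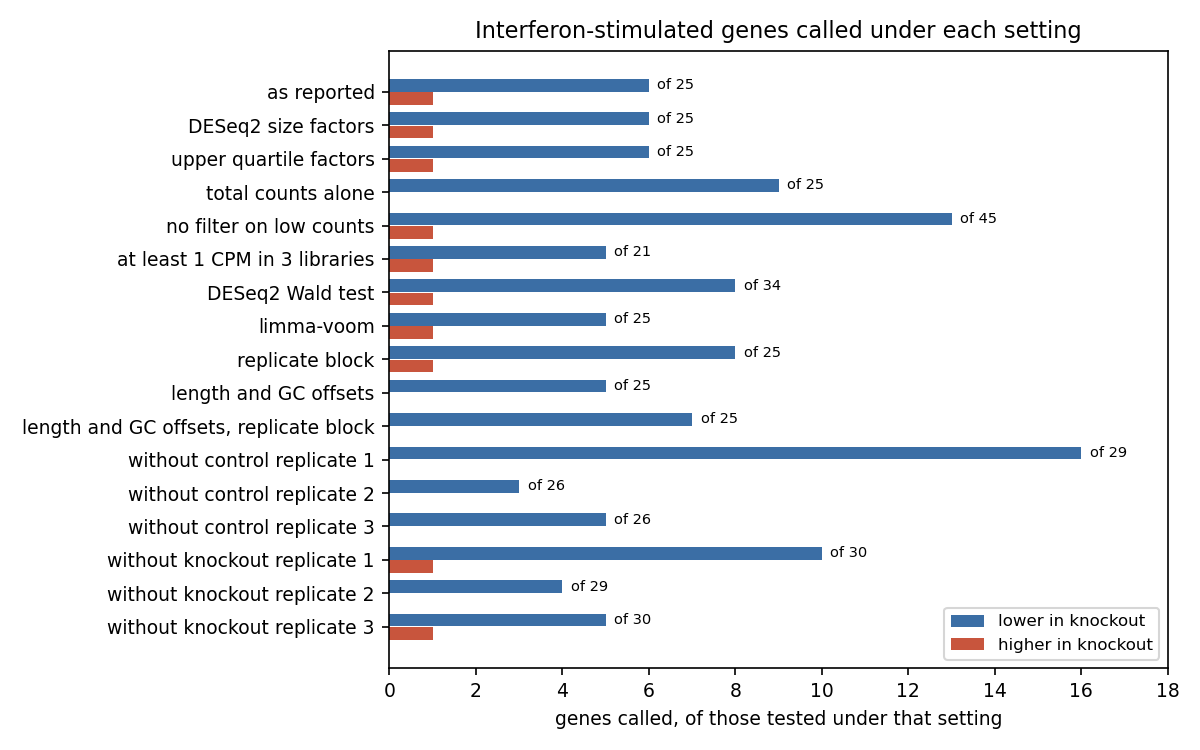
Number of interferon-stimulated genes called lower (blue) or higher (red) in knockout under each setting, with the number tested beside each bar. The count of lower genes ran from 3 without control replicate 2 to 16 without control replicate 1.

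No interferon gene was read at a level that could be compared. Of 20 interferon ligand genes, including Ifnb1, the Ifna genes and Ifng, 19 had 0 counts in all 6 libraries, which allows a level of up to 0.0297 CPM each (3 counts in 101037095), and the other, Ifnk, had at most 2 counts in a library. Of 17 tested receptor and signalling genes, 3 were lower and 0 higher (13.5% and 11.8% of all genes). They were the receptor kinases Tyk2 (46.4, 70.3 and 59.4 CPM in control; 39.0, 21.9 and 25.7 in knockout; log2 fold change -1.03, edgeR adjusted p = 0.0132) and Jak2 (-0.94, 0.00490), and Stat2 (12.1, 22.5 and 21.2 CPM; 13.0, 6.65 and 8.41; -1.01, 0.0321). The receptor chain gene Ifnar1 averaged 47.6 ± 4.48 CPM (SD, n = 3) in control and 42.7 ± 6.95 in knockout (-0.16, edgeR adjusted p = 0.472), and Ifnar2 averaged 23.1 ± 3.51 and 33.7 ± 7.28 (0.55, adjusted p = 0.0531). Jak2 was called under all 16 alternatives. Tyk2 lost its call on leaving out control 2 (0.0675), knockout 2 (0.0551) or knockout 3 (0.0548), and Stat2 on leaving out control 2 (0.137), control 3 (0.0899), knockout 2 (0.119) or knockout 3 (0.106), and with length and GC offsets plus the replicate block (0.0736).

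Of 12 tested genes of the pathway that induces interferon, 4 were lower and 0 higher (13.5% and 11.8% of all genes). Ddx58, which encodes the RNA sensor RIG-I, fell from 15.2 ± 6.07 to 6.89 ± 0.56 CPM (SD, n = 3; log2 fold change -1.16, edgeR adjusted p = 0.0197), Tlr9, a DNA receptor of endosomes, from 10.3 ± 1.71 to 4.46 ± 2.13 (-1.22), the DNA sensor gene Cgas from 56.7 ± 6.0 to 41.2 ± 4.59 (-0.46, 0.0421), and the adaptor Traf3 from 128 ± 24.1 to 91.1 ± 7.75 (-0.49, 0.0482). Traf3 also lost its call with limma-voom (0.0501) and with length and GC offsets (-0.18, 0.352), and Cgas with the replicate block (0.0545). Without control library 2, knockout library 2 or knockout library 3, 0 of these 12 were called lower. In those fits only 4.07%, 5.49% and 5.81% of all genes were lower. Mavs (-0.36, adjusted p = 0.0740), Sting1 (-0.16, 0.608), Irf3 (-0.02, 0.926) and Tbk1 (0.10, 0.655) had no call.

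Relatives and other induced genes outside the list of 49 included larger falls at higher levels. Of 16 tested relatives, 3 were lower and 1 higher (13.5% and 11.8% of all genes). Ifi203, a nuclear DNA-binding protein of the family of Ifi204, had 10.9, 22.0 and 21.1 CPM in control and 0.981, 0.806 and 1.04 in knockout. No libraries overlapped (fitted difference -4.24 on the log2 scale, SE 0.33, adjusted p = 7.33e-05 by edgeR). Mndal, of the same family, fell from 68.0 ± 15.6 to 17.5 ± 1.49 CPM (-1.96) and Slfn9 from 30.3 ± 2.24 to 18.6 ± 1.90 (-0.70). Mndal (173849126 to 173942491) and Ifi203 (173920407 to 173942672) overlap in position on the minus strand of chromosome 1. Their shared sequence was not counted, so their falls may not be independent. Isg20l2, a nucleolar exonuclease related to Isg20 by sequence, rose from 111 ± 17.4 to 171 ± 10.7 (0.63). The other 12 relatives had no call, among them Aim2 at 122 ± 28.0 and 138 ± 15.1 CPM (0.17, edgeR adjusted p = 0.494). Of 28 tested other induced genes, 11 were lower and 1 higher (13.5% and 11.8% of all genes), and their median was -0.50. Stat2 counts here as well. The other 16 had no call, among them the most abundant by CPM, Ly6e, at 359 ± 31.5 and 355 ± 32.7 (-0.02, edgeR adjusted p = 0.939). Samd9l, an inhibitor of translation, had 2.33, 6.99 and 8.07 CPM in control and 0.528, 0.470 and 0.348 in knockout (-3.72, edgeR adjusted p = 0.00188). Every knockout library lay below the minimum level for testing (about 0.620 CPM). Samd9l was thus tested only through the controls, which favours a fall. The nuclear body proteins Sp110 (-3.29) and Sp100 (-2.51), Epsti1 (-1.95) and the helicase Helz2 (-1.34) fell, and were called in every alternative, as were Ifi203, Mndal, Slfn9 and Samd9l. The falls of Lgals9 (-1.75), Rnf213 (-1.29), Znfx1 (-1.08) and Tdrd7 (-0.82) and the rise of the chaperone Daxx (0.56) were each lost without control library 2, among others. Without that library 5 of 28 were lower and 0 higher (4.07% and 1.43% of all genes).

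Of 13 leukocyte markers tested, 4 were lower (Cybb at -4.97, Lyz2 at -2.81, Csf1r and Zbtb46 at -0.72 each) and 1 higher (Fcer1g at 0.76). Over all genes tested, 13.5% were lower and 11.8% higher. Cybb was below the minimum level for testing (about 0.620 CPM) in every knockout library. It was thus tested only through the controls, which favours a fall. The summed level over 15 leukocyte markers was 2192 to 2828 CPM in control and 2099 to 2610 in knockout. The summed level of 15 lymphocyte, epithelial and endothelial markers was 1.16 to 1.30 CPM in control and 0.647 to 1.54 in knockout. The part of the myeloid differences in the results above was not tested.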

How the data were processed

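RNA-seq of 6 libraries, 3 per group, was analysed from 1 table. Its values, as deposited, are raw read counts for each gene in whole numbers. Trimmomatic 0.39, STAR 2.7.5c and StringTie 2.1.7 with mm10 are named, without roles, per the submitters' processing notes; how reads were counted, with which annotation and strand setting, is not given in the sources used here, so reads of antisense or overlapping genes cannot be separated. Columns were matched to samples by name.

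Counts were filtered with edgeR's filterByExpr (about 0.620 CPM in 3 libraries), scaled by TMM and tested by quasi-likelihood in edgeR 4.0.16 under R 4.3.3, with limma 3.58.1, two-sided, with Benjamini-Hochberg adjustment over 11453 genes and a threshold of 0.05. Intervals are 95%. Positions and exon lengths came from GENCODE M21 (GRCm38): 30260 symbols matched directly and 337 through another symbol. Shared sequence was counted as stretches of 50 bases found in another gene's transcripts.

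The gene list, its roles, the lists outside it and the motifs were chosen with earlier results of these data known. Every listed gene is accounted for. Some genes of the lists outside it enter the counts but are not reported here by name. Called genes have all 6 values (a mean and SD for most outside the list), and so does the most abundant uncalled gene of each role. Promoters of called genes with an entry were eligible to be shown. Alternatives were 3 other scalings (DESeq2's factors, the upper quartile, totals), 2 other filters, the tests of DESeq2 1.42.0 and of limma-voom, a replicate block, length and GC offsets (loess, span 0.3), both together, and leaving out each library. On simulated counts (11465 genes tested) the test called 90.0% of 100 genes changed by 1 on the log2 scale and 100% of 100 changed by 2. Of the calls, 4.52% were false. The simulation gave every gene the same dispersion (a coefficient of variation of 17.5%) and changed only genes with ample counts. It held no library set apart by stromal transcripts. These rates therefore do not carry over to genes as variable or as low as Oas2 and Rsad2.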

Additional observations from a re-analysis of the deposited data

How the results depend on the processing

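Counts of lower genes were 9 of 25 with total counts alone (19.3% of all genes lower), 13 of 45 with no filter on low counts (9.91%), 8 of 34 with DESeq2 (13.7%, adjusted p-values given as NA left out), 8 of 25 with the replicate block (15.1%) and 5 of 25 after the length and GC correction (8.57%). Counts of higher genes were 0 with total counts alone and 0 with length and GC offsets, whether or not the block was added. The median log2 fold change of tested members was -0.84 with total counts alone, which moved the median of all genes to -0.14, and -0.56 with length and GC offsets (-0.55 on adding the block), which moved it to 0.12. It was -1.14 with no filter, -0.58 with the filter of 1 CPM in 3 libraries and -0.83 with DESeq2, where the set of genes tested differs. Leaving out each library gave 3 to 16 lower and 0 to 1 higher, medians from -0.96 to -0.49, and 638 to 4962 calls over all genes. In these fits too the set of genes tested differs, and some genes enter only through the controls.

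Genes without a call changed sign. Isg15 was at -0.0386 with total counts alone, -0.10 with length and GC offsets and -0.0511 with those offsets and the block, and ran from -0.14 to 0.42 over the fits that left out a library. Ifi35 was at -0.0750, -0.0601 and -0.0714 under the same 3 settings and ran from -0.0776 to 0.16. Igtp was at -0.0170 with total counts alone and ran from -0.0548 to 0.57. Irgm1 was at 0.14 with the offsets, with or without the block, and ran from -0.28 to 0.16. Oasl1 ran from -0.0952 to 0.0508. The cause was not tested. No called gene changed sign.

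Same-numbered libraries of the groups correlated over all genes at 0.154, -0.064 and 0.358 for numbers 1, 2 and 3, so the numbers were not taken as pairs. Over the 25 tested members alone the same correlations were 0.726, 0.361 and 0.630. The replicate block gave 8 lower and 1 higher, adding Oas3 (-1.36, edgeR adjusted p = 0.000474) and Lgals3bp (-1.41, 0.0379), with 1480 higher and 1732 lower over all genes. Not every library correlated best with its own number. At these depths most guanylate binding proteins had too few counts for a difference to be detectable.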
